A study of Mus musculus with 6 samples.

Results

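The integrin subunits described here are a chosen list of 10 that bind extracellular matrix: *Itga1*, *Itga2*, *Itga3*, *Itga5*, *Itga6*, *Itgav*, *Itgb1*, *Itgb3*, *Itgb5* and *Itgb8*. The list does not hold every such subunit on the arrays, and *Itga4* is given further below among the others. The 10 were represented by all 30 probe sets annotated to exactly 1 of these genes, among 45037 probe sets and 18193 genes tested. CTL (cytotoxic T lymphocytes) were made from splenocytes of P14 LCMV TCR transgenic C57BL/6 mice, 8 to 12 weeks old. In both groups the cells were stimulated with gp33-41 peptide for 48 hours, transduced with retrovirus 18 hours after peptide was added and grown in IL-2 for a further 48 hours, and the GFP-positive cells were sorted. GFP-KLF2 CTL carried a fusion of GFP with the transcription factor KLF2, so that KLF2 expression was enforced at a time when it is normally lost, and evGFP CTL carried the empty vector with GFP alone. Each group had 3 arrays, labelled as biological replicates 1, 2 and 3. The construct is driven by a retroviral vector and not by the *Klf2* locus.

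Integrins are adhesion receptors made of 1 alpha and 1 beta subunit, and the pair decides what is bound. The product of *Itgb1* pairs with those of *Itga1* and *Itga2* to bind collagen, with those of *Itga3* and *Itga6* to bind laminin and with that of *Itga5* to bind fibronectin. The alpha V chain encoded by *Itgav* pairs with the products of *Itgb1*, *Itgb3*, *Itgb5* or *Itgb8*, and binds vitronectin, fibronectin or the latent form of TGF-beta. On activated T cells such receptors serve adhesion and movement in tissue. The comparison asked whether enforced KLF2, which is known to govern where T cells home, came with a change in these transcripts.

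Levels are RMA values on the log2 scale, and a fold change is GFP-KLF2 over evGFP, fitted by limma over all probe sets. A probe set rose or fell where its Benjamini-Hochberg adjusted p was under 0.046. A gene is named by its brightest probe set, the one with the highest mean over the 6 arrays. Across probe sets, which are no replicates, Pearson's correlation was 0.993 to 0.996 between arrays of a group and 0.982 to 0.990 between arrays of different groups. Of 10 markers of CD8 T cells 9 were measured, with group means of 10.13 (*Cd3e*, GFP-KLF2) to 13.85 (*Thy1*, GFP-KLF2). Of these 9 only *Cd8b1*, the beta chain of CD8, passed, and it rose by 0.45 (adjusted p = 0.0107). The log2 of the summed intensities of the 9 was 15.79 to 15.85 in GFP-KLF2 CTL and 15.67 to 15.75 in evGFP CTL, without overlap, and the part of this shift in the integrin values was not tested. The *Klf2* probe set gave 9.83, 9.67 and 8.74 in GFP-KLF2 CTL and 10.99, 10.37 and 8.80 in evGFP CTL. By the study's account it reads sequence that the construct lacks, so it does not check the labels. As a measure of background, 83 probe sets of olfactory, vomeronasal and taste receptors were read, and 0 of the 83 passed the test. Their levels had a median of 3.84, a 95th percentile of 5.48 and a maximum of 7.07. Levels not above 5.48 are called the receptor range below.

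Of the 10 listed subunits *Itgb3*, the beta 3 chain of the vitronectin receptor, stood out by the size of its change. It was 4.16-fold higher in GFP-KLF2 CTL. In the fit without a replicate block it was the only member gene that rose at its brightest probe set. In that fit 0 of the 10 fell and 9 did not pass the test. Over all genes 6.22% rose, 8.35% fell and 2.23% rose at least 2-fold. Of the 30 member probe sets 3 rose (4.76% of all probe sets) and 1 fell (6.39% of all). The median log2 fold change was 0.05 over the 10 genes and -0.01 over all genes. The arrays of the groups did not overlap for 6 member probe sets that were higher in GFP-KLF2 CTL (12.5% of all probe sets) and for 1 that was lower (17.3% of all). The rises and falls given here are from the fit without a replicate block. With the replicate number as a block *Itgb1* rose as well (limma adjusted p = 0.0208). With so few members, the counts were not tested against the rest of the array.

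Levels bear on which of these calls can be read. Of the 30 member probe sets 17 had a mean above the 95th percentile of the receptor probe sets, and 13 did not. The brightest probe set lay above it for 7 genes, and for 3 (*Itga1*, *Itga2* and *Itgb8*) it did not. Both *Itgb3* probe sets that rose lay above it, but the dimmer (mean 6.75) was under the highest receptor probe set (7.07). The other 2 calls, 1 probe set each of *Itgb1* and *Itgb5*, came from probe sets whose mean was not above the 95th percentile.

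**Figure D1:**
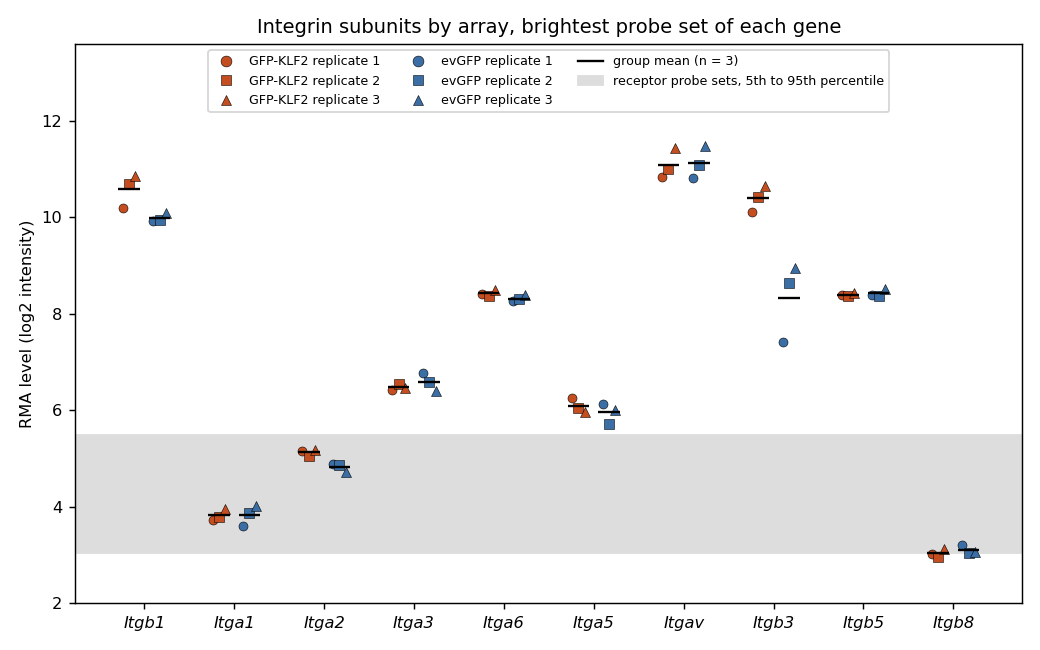
RMA level (log2 intensity, vertical axis) of the brightest probe set of each of the 10 integrin subunits in each array. Points are arrays with GFP-KLF2 left of evGFP, bars are group means (n = 3), and the grey band is the 5th to 95th percentile (3.04 to 5.48) of the olfactory, vomeronasal and taste receptor probe sets. *Itgb3* is the gene with the widest gap between the groups, and *Itga1*, *Itga2* and *Itgb8* lie in or at the edge of the band.

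*Itgb3* (Entrez gene 16416, GRCm38.p6 chr11:104608000-104670476) encodes the beta chain that pairs with alpha V on many cells and, on platelets, with the product of *Itga2b*. Its brightest probe set read 10.10, 10.42 and 10.66 in GFP-KLF2 CTL replicates 1, 2 and 3, against 7.43, 8.64 and 8.94 in evGFP CTL. All 3 GFP-KLF2 arrays lay above all 3 evGFP arrays, and evGFP replicate 1 was the lowest by more than 1 log2 unit. The log2 fold change was 2.06 (standard error 0.36, 95% interval 1.21 to 2.91, limma adjusted p = 0.0133, 0.00205 with the replicate number as a block). Within the 3 pairs of arrays with the same number the differences were 2.68, 1.78 and 1.71. *Itgb3* did not pass without GFP-KLF2 replicate 2 (log2 fold change 2.04, adjusted p = 0.0471), nor at the adjusted p of 0.00046 that the methods print.

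The second *Itgb3* probe set was 6.79, 7.17 and 6.94 in GFP-KLF2 CTL and 6.53, 6.58 and 6.47 in evGFP CTL. It rose by much less, at 0.44 on the log2 scale (standard error 0.11, adjusted p = 0.0377). Both probe sets thus moved in the same direction with groups that did not overlap, but the sizes differed by 1.61 log2 units. In an exact permutation test of the difference between the 2 probe sets within each array this gave p = 0.1 (2-sided, 0.1 after adjustment over 2 such tests). That is the smallest p that 3 arrays against 3 allow, so the test cannot decide whether the sizes differ. When both probe sets were averaged the log2 fold change was 1.25 (adjusted p = 0.00839), between the 2 single estimates. The call of the dimmer one was lost with each single array left out (adjusted p = 0.0791 to 0.102), except without GFP-KLF2 replicate 1, and on quantile normalization of the values again (0.0465).

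Platelets and their precursors express *Itgb3*, so their markers were read beside it. Of 14 listed markers 12 were measured, of which only *F2rl2* rose, by 0.52 (adjusted p = 0.0229), although it did not pass without GFP-KLF2 replicate 1 or 2 or evGFP replicate 1 or 2 (0.0705 to 0.0872). The log2 of their summed intensities was 9.82 to 10.76 in GFP-KLF2 CTL and 9.43 to 9.69 in evGFP CTL, without overlap. *Selp*, which encodes P-selectin and is also found on activated cells of other types, was one of them, at 10.01, 8.85 and 7.83 in GFP-KLF2 CTL against 7.37, 6.87 and 5.48 in evGFP CTL (log2 difference 2.33, adjusted p = 0.0528, or 0.000502 with replicate as a block). *Selp* was highest in replicate 1 of both groups, where the brightest *Itgb3* probe set was lowest. The second *Itgb3* probe set was lowest in replicate 1 of GFP-KLF2 CTL but in replicate 3 of evGFP CTL. The platelet chemokines *Pf4* (4.59 in GFP-KLF2 CTL and 4.48 in evGFP CTL) and *Ppbp* (3.22 in GFP-KLF2 CTL and 3.15 in evGFP CTL) had means within the receptor range, and *Itga2b* was 7.38 in GFP-KLF2 CTL and 7.45 in evGFP CTL (log2 fold change -0.07, adjusted p = 0.734). *Selp*, *Pf4*, *Ppbp* and *Itga2b* were named after their values were seen, and the other measured markers that did not pass are not given singly. Macrophage and dendritic cell markers summed to 9.54 to 9.60 in GFP-KLF2 CTL and 9.21 to 9.36 in evGFP CTL, without overlap. Of 13 measured only *Cx3cr1*, also a marker of effector CD8 T cells, passed, and it rose by 1.58 (adjusted p = 0.000818). The part of other cells in the *Itgb3* values was not tested, and in such bulk samples more cells of a type and more RNA per cell cannot be told apart.

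*Itgb1* (Entrez gene 16412, GRCm38.p6 chr8:128685654-128733579) encodes the beta chain shared by the collagen, laminin and fibronectin receptors. Its brightest probe set read 10.19, 10.70 and 10.86 in GFP-KLF2 CTL and 9.93, 9.96 and 10.10 in evGFP CTL. The groups did not overlap, but GFP-KLF2 replicate 1 lay close to the highest evGFP array. The 1.50-fold difference (log2 0.59, standard error 0.17, 95% interval 0.20 to 0.98) missed the threshold (adjusted p = 0.0636). It passed with the replicate block (0.0208), with cyclic loess (0.0398) and without GFP-KLF2 replicate 1 (log2 fold change 0.78, adjusted p = 0.0135).

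The next probe sets of *Itgb1* gave similar sizes. The second brightest was 9.77, 10.20 and 10.23 in GFP-KLF2 CTL and 9.54, 9.47 and 9.73 in evGFP CTL (log2 difference 0.49, adjusted p = 0.0648, or 0.0288 with replicate as a block). The third was 6.83, 7.05 and 7.37 in GFP-KLF2 CTL and 6.48, 6.64 and 6.87 in evGFP CTL (log2 difference 0.42, adjusted p = 0.147, or 0.0151 with the block). In each of these 3 probe sets every GFP-KLF2 array was above the evGFP array of the same number, by 0.24 to 0.76. The only *Itgb1* probe set that rose in the fit without the block was a dim one, at 4.05, 4.13 and 4.33 in GFP-KLF2 CTL and 3.78, 3.66 and 3.72 in evGFP CTL (0.45, adjusted p = 0.0233). These levels are within the range of the receptor probe sets, and the call was lost without GFP-KLF2 replicate 2 or 3 or evGFP replicate 1, 2 or 3 (adjusted p = 0.05 to 0.0892). The last 2 probe sets, with group means of 3.01 to 3.29, had log2 fold changes of -0.05 and 0.08 (adjusted p = 0.823 and 0.704) within that same range. With the replicate block 2 member genes (*Itgb1* and *Itgb3*) and 6 member probe sets rose, and 1 member probe set fell. Over all 45037 probe sets 3033 rose and 4292 fell with the block, against 2145 and 2877 without it.

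The promoters of the members were searched for short letters that KLF proteins are known to bind, since the transduced protein is such a factor. RefSeq windows on GRCm38.p6, from 250 bases before to 50 after a listed start, were matched for 8 of the 10 genes (9 windows, 2 of them for *Itga3*, and not for *Itga6* and *Itgb3*). CACCC, read on both strands, was in 6 of the 9 member windows, against 57.5% of 32851 windows of all genes. The related CCGCCC, also read on both strands, was in 7 of the 9, against 35.7% of all windows, and the motifs did not overlap in any member window. The windows of *Itgb1*, whose 3 brighter probe sets had higher means in GFP-KLF2 CTL, and of *Itgav*, none of whose probe sets passed, are shown as examples. Each holds both motifs, as do the windows of *Itga2* and *Itgb5*, which are not shown. That of *Itgb1* is chr8:128685404-128685703 on the plus strand and that of *Itgav* is chr2:83724147-83724446 on the plus strand, each 300 bases long and 67.3% G or C, and the capitals mark both motifs or their reverse complements.
Itgb1: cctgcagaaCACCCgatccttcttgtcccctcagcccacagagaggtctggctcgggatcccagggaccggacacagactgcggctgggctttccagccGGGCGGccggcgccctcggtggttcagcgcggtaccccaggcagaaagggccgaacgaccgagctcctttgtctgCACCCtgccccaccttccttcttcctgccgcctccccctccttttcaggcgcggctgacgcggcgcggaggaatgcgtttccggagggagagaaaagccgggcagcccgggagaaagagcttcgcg
Itgav: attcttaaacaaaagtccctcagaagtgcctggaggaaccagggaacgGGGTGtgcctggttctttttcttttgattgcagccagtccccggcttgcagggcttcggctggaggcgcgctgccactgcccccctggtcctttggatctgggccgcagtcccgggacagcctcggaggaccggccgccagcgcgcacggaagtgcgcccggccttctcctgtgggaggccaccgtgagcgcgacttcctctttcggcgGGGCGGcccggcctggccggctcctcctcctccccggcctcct
*Itgb1* holds 2 copies of CACCC and 1 of CCGCCC, and *Itgav* holds 1 of each. The *Itgb1* window spans the start of the gene (128685654). The *Itgav* window lies wholly inside the gene (83722303-83806917), at an internal listed start. A match of letters is a description and shows no binding.

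*Itgav* (Entrez gene 16410, chr2:83722303-83806917) encodes the alpha V chain. Its brightest probe set was 10.83, 11.01 and 11.45 in GFP-KLF2 CTL and 10.83, 11.10 and 11.48 in evGFP CTL, above 94.9% of all probe sets. The groups overlapped fully, and replicate 3 was the highest and replicate 1 the lowest in both. The log2 fold change was -0.04 with a 95% interval of -0.51 to 0.44 (adjusted p = 0.944). None of its 4 other probe sets passed, with differences of -0.13 to 0.13 on the log2 scale (adjusted p = 0.417 to 0.991). The partner *Itgb3* thus differed between the groups where *Itgav*, read by the same arrays, did not pass, but the difference between these changes was not tested.

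**Figure D2:**
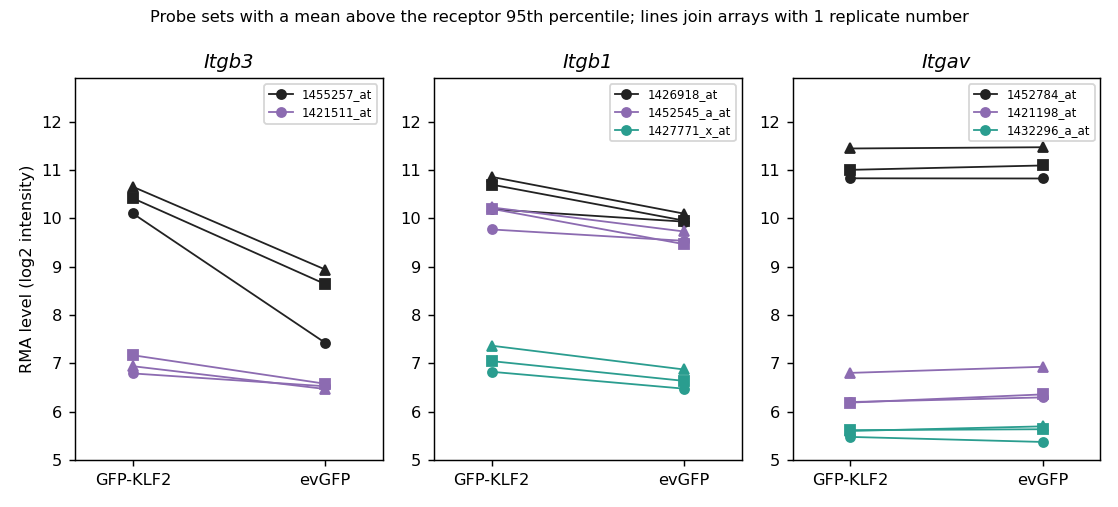
RMA level (log2 intensity, vertical axis) of the *Itgb3*, *Itgb1* and *Itgav* probe sets with a mean above the 95th percentile of the receptor probe sets (5.48), with GFP-KLF2 left and evGFP right. Each line joins 2 arrays with the same replicate number (circle 1, square 2, triangle 3). All lines of *Itgb3* and *Itgb1* run lower on the evGFP side, and the lines of *Itgav* are nearly level.

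*Itgb5*, on chr16:33829665-33949338, encodes another partner of alpha V that binds vitronectin. Its 4 probe sets all had log2 fold changes under 0 but disagreed in size. The brightest was 8.40, 8.38 and 8.43 in GFP-KLF2 CTL and 8.40, 8.37 and 8.51 in evGFP CTL, so that the groups overlapped (log2 fold change -0.03, 95% interval -0.20 to 0.15, adjusted p = 0.886). The dimmest was 4.31, 4.00 and 4.21 in GFP-KLF2 CTL and 4.64, 4.75 and 5.31 in evGFP CTL, and fell by 0.73 on the log2 scale (standard error 0.18, adjusted p = 0.0402). Its levels are within the receptor range, and it passed without a single array only where evGFP replicate 3 was left out. The other 2 probe sets had log2 fold changes of -0.27 (adjusted p = 0.224) and -0.38 (0.404). The names of the brightest and the dimmest mark them as able to bind other transcripts. With such probe sets left out, the gene was given by the one at -0.27 and did not pass. The exact permutation test of the difference between the dimmest and the brightest probe set gave p = 0.1 (2-sided), again the smallest possible. It therefore cannot decide whether these probe sets differ. *Itgb8*, whose product pairs with alpha V to activate latent TGF-beta, was at 3.01, 2.96 and 3.12 in GFP-KLF2 CTL and 3.19, 3.03 and 3.06 in evGFP CTL (log2 fold change -0.07, adjusted p = 0.711). Its single probe set was not above the receptor range in either group.

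The collagen receptor alpha chains gave little signal. *Itga2* (chr13:114833081-114932100) was 5.15, 5.05 and 5.17 in GFP-KLF2 CTL and 4.88, 4.85 and 4.72 in evGFP CTL. The groups did not overlap, as for 14.3% of all genes in this direction, but all 6 values were under the 95th percentile of the receptor probe sets. The log2 fold change of 0.31 (standard error 0.08, 95% interval 0.12 to 0.50) had an adjusted p of 0.0483, just short of the threshold, and it passed at 0.05, with array weights (0.0353) and in the fit of gene means (0.0293). *Itga1* (chr13:114958079-115101964), known on tissue-resident CD8 T cells, had 3.71, 3.79 and 3.94 in GFP-KLF2 CTL and 3.59, 3.86 and 4.02 in evGFP CTL. Its 2 probe sets had log2 fold changes of -0.01 and -0.08 (adjusted p = 0.981 and 0.722), at levels within the receptor range.

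The laminin and fibronectin receptor alpha chains had brightest probe sets above the 95th percentile of the olfactory, vomeronasal and taste receptors and did not pass the test. Those of *Itga3* (mean 6.53) and *Itga5* (mean 6.02) were still under the highest probe set of those receptors (7.07). *Itga6* (chr2:71786886-71858427) was 8.41, 8.37 and 8.50 in GFP-KLF2 CTL and 8.26, 8.30 and 8.39 in evGFP CTL. The groups overlapped slightly and the log2 fold change was 0.11 (95% interval -0.07 to 0.29, adjusted p = 0.472), with 0.07 at the second probe set. *Itga3* (chr11:95044475-95076844) was 6.42, 6.55 and 6.45 in GFP-KLF2 CTL and 6.76, 6.59 and 6.40 in evGFP CTL. Its 3 probe sets had log2 fold changes of -0.11, -0.07 and 0.06 (adjusted p = 0.604 to 0.827). *Itga5* (chr15:103344286-103366791), the alpha chain of the classical fibronectin receptor, was 6.24, 6.04 and 5.96 in GFP-KLF2 CTL and 6.13, 5.72 and 6.01 in evGFP CTL. Its log2 fold change was 0.13 (95% interval -0.17 to 0.42, adjusted p = 0.623), and its 3 dimmer probe sets had -0.03 to 0.22. The intervals of *Itga6*, *Itga3* and *Itga5* leave out a 2-fold change in either direction at the brightest probe set.

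**Figure D3:**
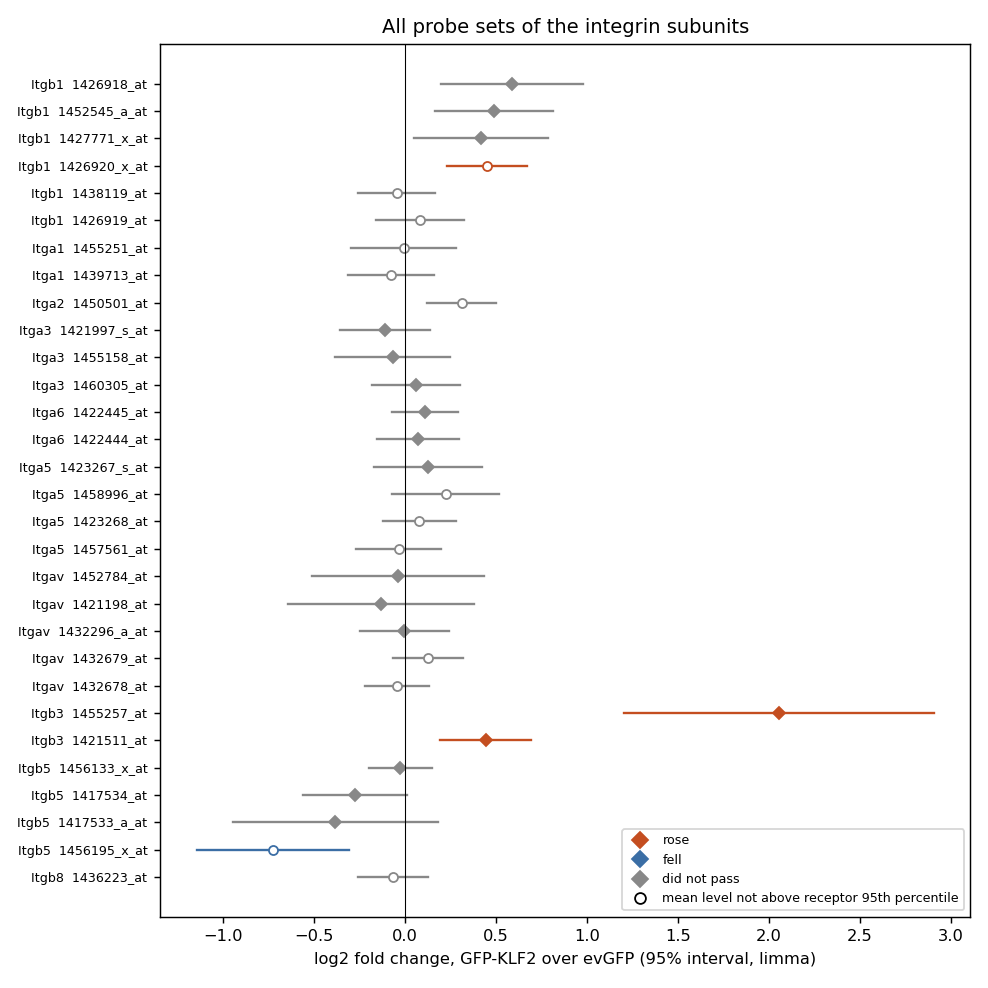
Log2 fold change of GFP-KLF2 over evGFP (horizontal axis, with its 95% interval from limma) for all 30 probe sets of the 10 integrin subunits. Red rose, blue fell and grey did not pass at an adjusted p under 0.046, and open circles mark probe sets whose mean was not above the 95th percentile of the receptor probe sets. The 2 probe sets of *Itgb3* are the filled red points, at 2.06 and 0.44.

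Among the integrin subunits outside this list of 10, 4 of 14 measured (16 listed) rose (6.22% of all genes) and 0 fell (8.35% of all). They were the leukocyte subunits *Itgax* (log2 fold change 2.41, adjusted p = 0.00379) and *Itgb2* (0.87, 0.00633), which pair as a complement receptor, and *Itga4* (1.42, 0.0029) and *Itgb7* (0.80, 0.0013), which pair as a receptor for the mucosal addressin. The product of *Itga4* also pairs with that of *Itgb1*, and then binds fibronectin and VCAM-1. *Itga4* averaged 8.63 ± 0.32 in GFP-KLF2 CTL and 7.22 ± 0.13 in evGFP CTL (SD, n = 3 each), and the groups did not overlap. *Itgae*, named after its values were seen, had -1.53 (adjusted p = 0.0694) and fell with the replicate block (0.00168). The median of these 14 genes was 0.06.

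Of 44 listed genes of integrin activation and the adhesion complex 41 were measured. Of these 7 rose (6.22% of all genes) and 2 fell (8.35% of all), with a median log2 fold change of 0.08. *Vcl*, which encodes the actin linker vinculin, was 9.44, 9.13 and 9.19 in GFP-KLF2 CTL and 7.46, 7.73 and 7.62 in evGFP CTL (1.65, standard error 0.11, adjusted p = 0.000546). *Zyx*, which encodes the focal adhesion protein zyxin, rose by 1.18 (adjusted p = 0.00705), the kinase gene *Ptk2b* by 0.73 (0.00435) and *Rasgrp2*, an exchange factor for the integrin activator RAP1, by 0.70 (0.0411). Leaving out any 1 array but evGFP replicate 1 ended the call of *Rasgrp2* (adjusted p = 0.0675 to 0.125). Genes whose products bind integrin tails, named after their values were seen, differed among themselves. *Flna* (filamin A) rose by 0.43 (adjusted p = 0.0134) and the tensin gene *Tns3* by 0.59 (0.0167), while another tensin gene, *Tns1*, fell (-0.40, 0.0206). The other gene of the list that fell was *Lims2*, by more than *Tns1* (-0.47, adjusted p = 0.00714). *Tln1* (talin, -0.02, adjusted p = 0.926) and *Fermt3* (kindlin-3, -0.07, 0.688) did not pass. *Flna* lost its call without evGFP replicate 1 (adjusted p = 0.0495), *Tns3* without evGFP replicate 1 or 2 (0.0518 to 0.0620), and *Tns1* without GFP-KLF2 replicate 1 or 2 or evGFP replicate 1 or 2 (0.0688 to 0.0808) and with cyclic loess (0.0496). With the replicate block 9 genes of the list rose and 3 fell (3033 and 4292 of all 45037 probe sets). The number of genes that rose was 4 without evGFP replicate 1 or 2, and 1 fell without GFP-KLF2 replicate 1 or 2 or evGFP replicate 1 or 2.

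Of the tetraspanins and other molecules that sit beside integrins in the membrane 12 were measured (13 listed). Of these 5 rose (6.22% of all genes) and 0 fell (8.35% of all), with a median log2 fold change of 0.30. With the replicate block 6 rose and 1 fell (3033 and 4292 of all 45037 probe sets). The gene that fell was *Cd82* (-0.30, adjusted p = 0.182, or 0.0395 with the block), named after its values were seen. *Cd9* was 10.88, 11.62 and 10.30 in GFP-KLF2 CTL and 8.62, 8.55 and 8.21 in evGFP CTL (2.48, standard error 0.30, adjusted p = 0.00371). *Cd81* was 11.63, 11.66 and 11.63 in GFP-KLF2 CTL and 9.55, 9.41 and 9.03 in evGFP CTL (2.31, standard error 0.13, adjusted p = 0.000299). In both the groups lay more than 1 log2 unit apart. *Plaur*, the urokinase receptor, rose by 2.13 (adjusted p = 0.0151) and the tetraspanin *Tspan32* by 2.07 (0.0198). Neither passed without GFP-KLF2 replicate 1 or 2 or evGFP replicate 2 (adjusted p = 0.0485 to 0.0725), and 3 genes of the list rose without any one of these arrays. *Tspan32* also did not pass with an intensity trend and robust prior (0.0480). *Cd151*, the tetraspanin best known as a partner of laminin-binding integrins, had 0.41 (adjusted p = 0.0868, 0.0195 with the replicate block).

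Of 31 listed matrix ligands 28 were measured, of which 2 rose (6.22% of all genes) and 1 fell (8.35% of all). With so few genes these counts stand near or under those shares. The laminin chains *Lamc1* (0.77, adjusted p = 0.00982) and *Lamb3* (0.65, 0.0142) rose. *Mfge8*, whose product binds alpha V integrins, fell (-0.70, adjusted p = 0.0124). *Lamb3* did not pass without GFP-KLF2 replicate 1 or 2 or evGFP replicate 1 or 2 (adjusted p = 0.0509 to 0.0603). *Fn1*, which encodes fibronectin, was 6.25 in GFP-KLF2 CTL and 6.14 in evGFP CTL (log2 fold change 0.11, adjusted p = 0.622). Of 8 measured genes for latent TGF-beta and its carriers (9 listed), 0 rose (6.22% of all genes) and 1 fell (8.35% of all). That gene, *Nrros*, encodes a membrane anchor of latent TGF-beta. It was 10.39, 10.27 and 10.52 in GFP-KLF2 CTL and 10.88, 11.08 and 10.98 in evGFP CTL (-0.59, standard error 0.10, adjusted p = 0.0102). *Tgfb1* had -0.14 (adjusted p = 0.517), and *Tgfb3*, named after its values were seen, rose with the replicate block only (0.59, adjusted p = 0.284, 0.0113 with the block). The medians of the 2 lists were 0.05 and 0.01.

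**Figure D4:**
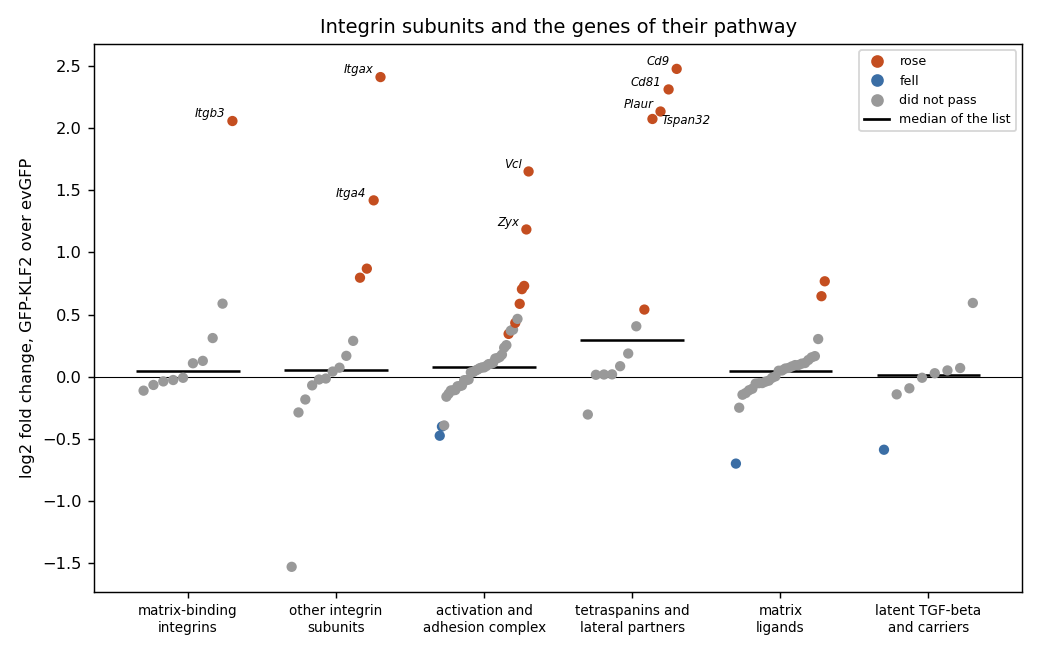
Log2 fold change of GFP-KLF2 over evGFP (vertical axis) for the 10 matrix-binding integrin genes and for 5 lists of related genes, each point a gene by its brightest probe set. Red rose, blue fell, grey did not pass, and the bar is the median of the list. *Itgb3* is the single red point of the matrix-binding integrins, and genes that passed with at least a 2-fold change are named.

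Markers of fibroblasts and stroma (0 of 11 passed) summed to 8.75 to 8.85 in GFP-KLF2 CTL and 8.62 to 8.84 in evGFP CTL, so that the groups overlapped. Endothelial markers summed to 9.87 to 9.96 in GFP-KLF2 CTL and 10.04 to 10.11 in evGFP CTL, without overlap. *Eng* was lower (-0.50, adjusted p = 0.0133, not passed without evGFP replicate 1 or 2, at 0.0482 to 0.0583). Epithelial markers (0 of 10 passed) summed to 9.64 to 10.12 in GFP-KLF2 CTL and 9.35 to 9.54 in evGFP CTL, without overlap. Of these *Cdh1* overlapped between the groups (1.86, adjusted p = 0.164, 0.00626 with the replicate block). B cell markers (0 of 9 passed) overlapped, at 8.90 to 9.28 in GFP-KLF2 CTL and 8.78 to 8.98 in evGFP CTL. The part of these cells in the integrin values was not tested.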

How the data were processed

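RNA of sorted CTL was hybridised to Affymetrix 3' IVT mouse expression arrays. The authors normalised the arrays by RMA (background correction, quantile normalization, a summary per probe set) and deposited intensity values on a linear scale, 5.74 to 33637.8. RMA and limma are named in the submitters' processing notes, with no versions given in the sources used here. RMA equalises the arrays' distributions, so all changes are relative.

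The log2 of each value was taken, and 64 control probe sets were left out. A constant per group was fitted with limma 3.58.1 in R 4.3.3, with 2-sided moderated tests and Benjamini-Hochberg adjustment over 45037 probe sets. The methods print the threshold as 0.046%, which was read as an adjusted p under 0.046, with 0.00046 as an alternative. Of the probe sets 34945 were annotated to 1 gene, 932 to several and 9160 to none, and 34741 matched RefSeq genes.

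The members and lists were chosen with earlier results of these data known. Named genes were all members and, of each list, up to 4 genes that passed, taken by the size of their log2 fold change. Genes outside this rule were named after their values were seen. Same-numbered arrays deviated together from their group means (correlations 0.33, 0.44 and 0.47, against -0.38 to 0.06 for different numbers), so that the numbers pair the arrays. Values with the replicate block are given beside the member genes and lists whose calls it changed. On simulated data the fit without the block found 12 of 50 changes of log2 0.585 and 36 of 50 of log2 1. It found 49 of 50 of log2 2 and 50 of 50 of log2 3, with 7 false calls. Changes of the smaller sizes can thus be missed. Alternatives were other thresholds, normalizations, variance models, probe set choices, the block and leaving out each array. With 3 arrays per group, their number limits the precision.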

Additional observations from a re-analysis of the deposited data

How the results depend on the processing

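*Itgb3* kept its direction in all 18 alternatives and passed in 16, the exceptions being an adjusted p under 0.00046 and leaving out GFP-KLF2 replicate 2. *Itgb1* was higher in GFP-KLF2 CTL in all 18 and passed in 3, and *Itga2* was higher in 17 of 17 and passed in 3. Of the member probe sets 3 rose and 1 fell, and of the member genes 1 rose and 0 fell. At an adjusted p under 0.05 2 genes rose. Under 0.00046 0 probe sets and 0 genes rose and 0 fell, among 51 rises and 4 falls over all probe sets. With at least a 2-fold change 1 member probe set rose and 0 fell, among 667 rises and 202 falls over all. No member probe set fell (0) once dim probe sets were removed, on quantile normalization again or without shared probe sets. With cyclic loess 5 member probe sets and 2 genes rose, 0 probe sets fell, and 1866 of all probe sets fell. Of all probe sets that passed 58.0% rose with cyclic loess and 42.7% in the fit reported. With array weights 2 genes rose, among 2780 rises and 3632 falls over all probe sets. With the replicate block 6 probe sets and 2 genes rose and 1 probe set fell, among 3033 rises and 4292 falls over all. By the mean of a gene's probe sets 2 genes rose, and by any probe set 2 rose and 1 fell. Leaving out 1 array gave 0 to 5 member probe sets that rose and 0 to 1 that fell, 0 to 2 genes that rose, 1045 to 1949 of all probe sets that rose and 1089 to 2078 that fell. It was 0 probe sets and 0 genes without GFP-KLF2 replicate 2, and 5 and 2 without GFP-KLF2 replicate 1. The cause of these shifts was not tested. The block changed no member gene's call but that of *Itgb1*. Signal limits the reading of 13 member probe sets, whose mean was not above the receptor probe sets' 95th percentile of 5.48.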
